A study of Canis lupus familiaris with 8 samples.

Results

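Reference genes are genes whose transcripts serve as the yardstick for others, in quantitative PCR above all, on the working assumption that their own level stays the same between the samples compared. The 8 genes described here are usual choices: the cytoskeletal actin ACTB, the translation elongation factor EEF1A1, the cyclophilin PPIA, the 14-3-3 adapter YWHAZ, the transferrin receptor TFRC, the purine salvage enzyme HPRT1, the TATA-binding protein TBP and the largest RNA polymerase II subunit POLR2A. They were chosen by name, as common reference genes, although earlier results of these data were known when the choice was made. All 8 were among the 12824 genes of the deposited table. Each stood above 1 CPM in every library (CPM is the read count scaled to library size), so that none was missing or near the lowest value of the table.

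The libraries came from retina of male wild-type Beagle dogs, 31 weeks old. In 4 of them the tissue was PFA-fixed. PFA is paraformaldehyde, a crosslinking fixative used for histology. Left eyes spent 3 h in 4% PFA, a further 24 h in 2% PFA, and then passed through sucrose before embedding and freezing, and RNA was extracted with a kit for paraffin-embedded tissue after 18 h of proteinase K. The other 4 libraries were fresh-frozen, from right eyes embedded without fixation or cryoprotection with RNA purified on small columns. All 8 libraries were made with the same stranded total RNA kit. Fixative, cryoprotection in sucrose, side of the eye, proteinase K and extraction kit change together and cannot be told apart. Which libraries share a dog is not in the labels, so the p-values reflect library-to-library spread, which may be technical. The title of the series mentions laser capture, and whether these libraries were captured that way is not in the labels either.

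A reference gene can be stable in different senses. Its level can vary little among replicates of one preparation, it can be the same in both preparations, and it can keep a fixed ratio to other genes. Genes of this kind are spread over unrelated cell functions so that one regulated pathway does not move them all, and their transcripts are made in nearly every cell type of the retina. In bulk samples, fewer cells that express a gene and less of its RNA per cell cannot be told apart.

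The estimated depth was 11060000 to 15420000 reads in PFA-fixed libraries and 21780000 to 22870000 reads in fresh-frozen libraries, a 1.73-fold difference between the means. Rod photoreceptor markers were present in all libraries, and the 18 listed took 3.06 to 3.40% of PFA-fixed and 3.11 to 3.51% of fresh-frozen libraries. Over the whole table limma, with Benjamini-Hochberg adjustment, called 8804 of 12824 genes (68.7%) at an adjusted p below 0.05, of which 4353 (33.9%) were higher and 4451 (34.7%) lower in PFA-fixed retina. Changes are given as PFA-fixed minus fresh-frozen on the log2 scale. The median change of all genes was -0.02. The 18 rod markers did not move together. Of them 9 rose, 5 fell and 4 were not called, from -0.98 for RBP3 to 1.11 for PDE6B. Centring on their mean, used below as an alternative, is thus not an anchor of unchanged genes.

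Of the 8 reference genes, 6 were called, where 68.7% of all genes were. All 6 fell in PFA-fixed retina (34.7% of all genes did), none rose (33.9% of all genes) and 2 were not called. The largest fall among the 8 was 1.79 on the log2 scale, for ACTB. Their median change was -0.45, beside -0.02 for all genes. The libraries of the 2 preparations did not overlap in 6 of the 8, where 62.9% of all genes did not overlap. A change of at least 1 was seen in 2 of the 8, ACTB and EEF1A1, and in 24.4% of all genes.

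**Figure D1:**
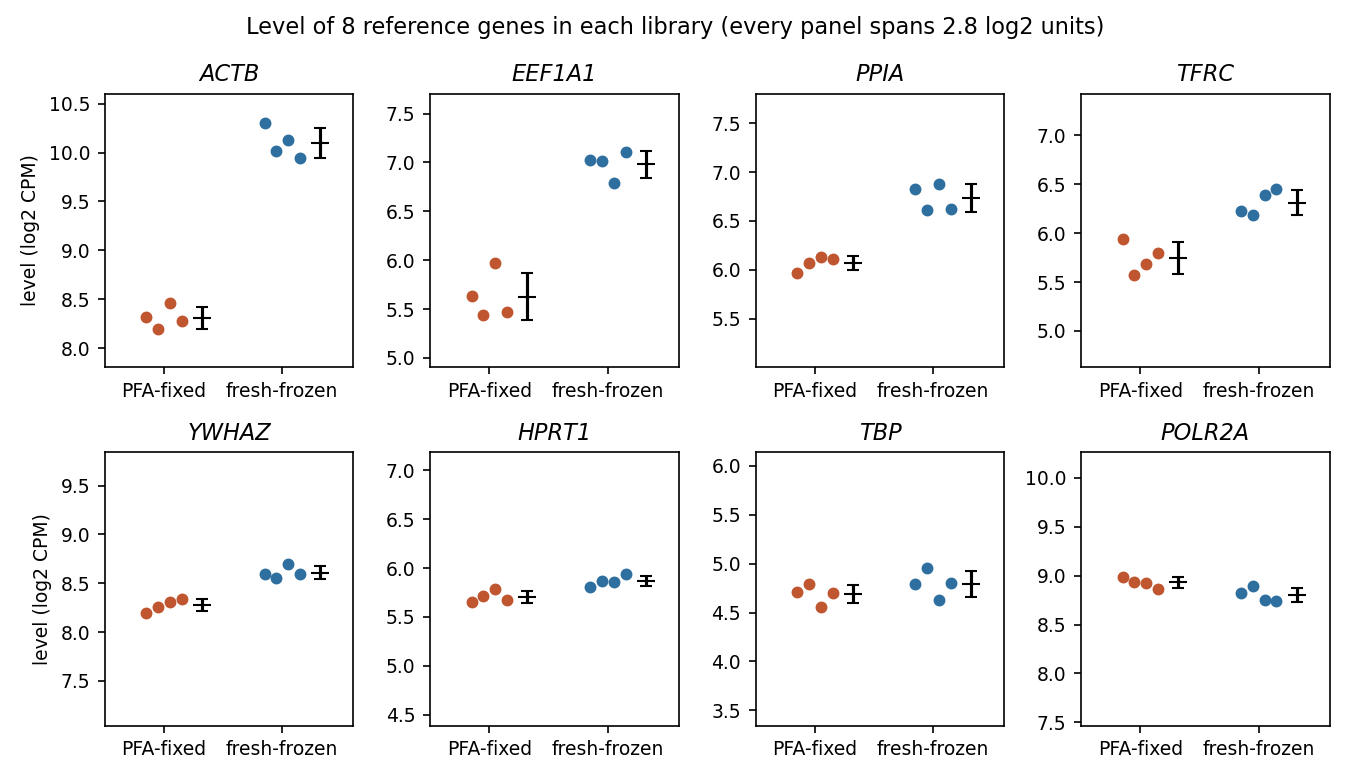
Level of each reference gene, in log2 CPM, in the 4 PFA-fixed (left, orange) and 4 fresh-frozen (right, blue) libraries, with the mean and SD of each group beside the points. The groups lie apart for 6 genes, widest for ACTB, and overlap for TBP and POLR2A.

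ACTB encodes beta-actin, the main non-muscle actin of the cytoskeleton. It stood at 8.32, 8.19, 8.46 and 8.28 log2 CPM in PFA-fixed replicates 1 to 4, against 10.30, 10.02, 10.13 and 9.94 log2 CPM in fresh-frozen replicates 1 to 4. Every fixed library lay far below every fresh-frozen one. On the linear scale the mean was 318 ± 25.3 CPM in PFA-fixed and 1101 ± 121 CPM in fresh-frozen retina (SD, n = 4 each). The change was -1.79 ± 0.087 (SE; 95% interval -1.98 to -1.60; limma adjusted p = 9.70e-09), so that PFA-fixed retina held 0.290 of the fresh-frozen level.

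Most of the other actins and partners of actin fell. Of 16 measured genes of this group, 13 fell and 2 rose, beside 34.7% and 33.9% of all genes. The median change of the group was -0.50. The 2 that rose, named after their values were seen, were the cardiac actin gene ACTC1, by 1.19 (limma adjusted p = 3.48e-04), and the Arp2/3 subunit gene ARPC4, by 0.53. ACTG1, the gamma-actin that shares nearly all of its protein sequence with beta-actin, stood at 9.96 ± 0.17 log2 CPM in PFA-fixed and 10.53 ± 0.13 log2 CPM in fresh-frozen retina (SD, n = 4 each). It fell by 0.57 (limma adjusted p = 2.54e-04), beside a fall of 1.79 for ACTB. The gene of the actin-severing protein, CFL1, fell by 0.90. ARPC1B, a subunit of the Arp2/3 complex, had a change of -2.16, and the smooth muscle actin gene ACTA2 one of -3.84. Because the coding sequences of the actins are alike, reads of ACTB and ACTG1 could be split between them in the authors' quantification, and their separate values are uncertain to that extent.

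Most listed markers of cell types other than retinal neurons moved in the same direction as ACTB, where 34.7% of all genes fell. All 8 measured pericyte and smooth muscle markers fell, and the list took 0.0334 to 0.0418% of PFA-fixed against 0.167 to 0.247% of fresh-frozen libraries. All 11 sclera and fibroblast markers fell, with a share of 0.00795 to 0.0111% in PFA-fixed and 0.873 to 1.18% in fresh-frozen libraries, and DPT stood at the lowest value of the table in 2 fixed libraries. All 12 pigment epithelium markers fell, and the list took 0.0105 to 0.0174% of PFA-fixed and 0.333 to 0.472% of fresh-frozen libraries. Of 10 endothelial markers 9 fell (0.0501 to 0.0600% of PFA-fixed, 0.103 to 0.142% of fresh-frozen libraries), and of 12 microglia and macrophage markers 10 fell (0.00392 to 0.00537% of PFA-fixed, 0.0251 to 0.0407% of fresh-frozen libraries), with TMEM119 at the lowest value in 1 fixed library. Not called were the endothelial marker KDR (-0.16) and the microglia and macrophage markers AIF1 (-0.40) and P2RY12 (0.23). The part of these cells in the falls of ACTB and of the other reference genes was not tested.

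EEF1A1 encodes the factor that carries aminoacyl-tRNA to the ribosome. It stood at 5.63, 5.44, 5.97 and 5.47 log2 CPM in PFA-fixed replicates 1 to 4, against 7.03, 7.01, 6.79 and 7.11 log2 CPM in fresh-frozen replicates 1 to 4. The groups lay apart, and among the fixed libraries replicate 3, which was also the deepest of them, was the highest. The change was -1.36 ± 0.115 (SE; 95% interval -1.61 to -1.10; limma adjusted p = 8.39e-07), or 0.391 of the fresh-frozen level. It was -1.47 without PFA-fixed replicate 3.

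Of 9 other measured genes listed as elongation factors or related to them, 7 fell and 1 rose (34.7% and 33.9% of all genes). Their median change was -0.49. The list includes the mitochondrial factors GFM1, TSFM and TUFM. It also holds EEF2K, the kinase of EEF2, and EEF1E1, which are not elongation factors themselves. The gene that rose, named after its value was seen, was GFM1, by 0.23. EEF2, which moves the ribosome along the mRNA, fell by 1.17, to 9.07 ± 0.13 log2 CPM in PFA-fixed against 10.24 ± 0.12 log2 CPM in fresh-frozen retina (SD, n = 4 each). EEF1A2, the relative of EEF1A1 that is typical of neurons and muscle, fell by 1.09 (limma adjusted p = 2.33e-05), and the exchange factor subunit gene EEF1D fell by 1.28. Processed pseudogenes of EEF1A1 are numerous in mammals and can share its reads, so the EEF1A1 level is uncertain where the authors' quantification split them.

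PPIA encodes cyclophilin A, a peptidyl-prolyl isomerase that assists protein folding. Its level was 5.97, 6.07, 6.13 and 6.11 log2 CPM in PFA-fixed replicates 1 to 4, and 6.83, 6.61, 6.88 and 6.62 log2 CPM in fresh-frozen replicates 1 to 4. All fixed libraries were lower than all fresh-frozen ones, where replicates 1 and 3 were high and replicates 2 and 4 low. PPIA fell by 0.66 ± 0.079 (SE; 95% interval -0.84 to -0.49; limma adjusted p = 1.54e-05).

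The other cyclophilin genes mostly went the other way. Of 15 measured, 10 rose and 2 fell, where 33.9% of all genes rose and 34.7% fell. The median change of the 15 was 0.52. The nuclear cyclophilins NKTR and PPIG, which carry domains rich in serine and arginine, rose by 1.38 and 1.30 (limma adjusted p = 2.04e-07 and 3.43e-09). RANBP2, a nuclear pore protein with a cyclophilin domain, rose by 0.55. PPIB, the cyclophilin of the endoplasmic reticulum, stood at 6.59 ± 0.12 log2 CPM in PFA-fixed and 6.51 ± 0.17 log2 CPM in fresh-frozen retina (SD, n = 4 each), a change of 0.08 that was not called (limma adjusted p = 0.477). The median of the list was 0.33 when each library was centred on its rod markers, and 7 genes were then called higher and 3 lower.

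YWHAZ encodes the zeta member of the 14-3-3 family, adapter proteins that bind phosphorylated partners and are abundant in neurons. It stood at 8.20, 8.26, 8.31 and 8.34 log2 CPM in PFA-fixed replicates 1 to 4, against 8.59, 8.55, 8.70 and 8.59 log2 CPM in fresh-frozen replicates 1 to 4. The groups did not overlap, and each was tight. YWHAZ fell by 0.33 ± 0.060 (SE; 95% interval -0.46 to -0.20; limma adjusted p = 3.81e-04), to 0.794 of the fresh-frozen level.

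The 14-3-3 family had 5 other measured genes, 4 of them lower and 0 higher in PFA-fixed retina. Over all genes 34.7% were lower and 33.9% higher. The median change of the 5 was -0.43. YWHAG and YWHAH fell by 0.63 and 0.62. YWHAE differed by -0.10 and was not called (limma adjusted p = 0.251), although it was called lower after quantile normalization (-0.29) and with rod marker centring (-0.29).

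TFRC encodes the transferrin receptor, which brings iron into cells and whose mRNA is stabilised when iron is scarce. Its level was 5.94, 5.57, 5.68 and 5.80 log2 CPM in PFA-fixed replicates 1 to 4 and 6.23, 6.19, 6.39 and 6.45 log2 CPM in fresh-frozen replicates 1 to 4. The groups did not overlap, and the gap between them was narrow. TFRC fell by 0.57 ± 0.094 (SE; 95% interval -0.77 to -0.36; limma adjusted p = 2.00e-04).

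Other genes of iron handling went both ways, with 3 of 10 higher, 5 lower and a median of -0.54. The whole table did so too, with 33.9% of genes higher and 34.7% lower. The ferritin light chain gene FTL fell by 1.66, and the ferroxidase gene CP (ceruloplasmin) had a change of -3.18. Among the lower levels of the list, MELTF, a relative of transferrin, fell by 2.57. The second transferrin receptor TFR2, also at a low level, rose by 1.76. It stood at 1.14 ± 0.44 log2 CPM in PFA-fixed against -0.61 ± 0.55 log2 CPM in fresh-frozen retina (SD, n = 4 each). IREB2, an iron-sensing RNA-binding protein that acts on the TFRC transcript, differed by 0.07 (limma adjusted p = 0.434) and by -0.12 with rod marker centring, and was called in neither. When genes with a mean below 3 log2 CPM were left out, 7 of the list remained, 2 of them called higher and 3 lower, with a median of -0.11.

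HPRT1 encodes hypoxanthine-guanine phosphoribosyltransferase, which recycles purine bases. It was at 5.65, 5.71, 5.79 and 5.67 log2 CPM in PFA-fixed replicates 1 to 4, against 5.81, 5.87, 5.86 and 5.94 log2 CPM in fresh-frozen replicates 1 to 4. The highest fixed library lay just below the lowest fresh-frozen one. The change was -0.16 ± 0.068 (SE; 95% interval -0.31 to -0.01), with a limma adjusted p of 0.0499 at a threshold of 0.05. The call ended without any single library other than PFA-fixed replicate 3 and fresh-frozen replicate 1, with changes of -0.17 to -0.14 and limma adjusted p-values of 0.0748 to 0.122. Centring on the library median gave -0.08 (limma adjusted p = 0.290), and the replicate number as a block gave a limma adjusted p of 0.0827. With rod marker centring the fall was larger, at -0.35 (limma adjusted p = 0.0047).

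Genes of purine salvage and synthesis did not share one direction, and neither did the genes of the whole table. Of 20 measured, 8 rose and 6 fell, beside 33.9% and 34.7% of all genes. Their median change was 0.13, which was -0.06 with rod marker centring, where 4 rose and 7 fell. PRPS2, which makes the activated ribose both routes use, and PAICS, an enzyme of synthesis, rose by 1.46 and 1.07. The salvage enzyme gene PNP fell by 0.61. IMPDH1, an enzyme of guanine nucleotide synthesis abundant in photoreceptors, rose by 0.35, a call that ended after quantile normalization (0.14) and with rod marker centring (0.16).

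TBP encodes the protein that recognises the TATA box and nucleates transcription complexes. It stood at 4.71, 4.79, 4.56 and 4.70 log2 CPM in PFA-fixed replicates 1 to 4, and at 4.79, 4.96, 4.63 and 4.80 log2 CPM in fresh-frozen replicates 1 to 4. The groups overlapped, and replicate 3 was the lowest and replicate 2 the highest of each. The change was -0.10 ± 0.096 (SE; limma adjusted p = 0.368), and its 95% interval of -0.31 to 0.11 includes small changes either way. TBP was called lower with rod marker centring (-0.29, limma adjusted p = 0.0321) and stood at 0.0052 after quantile normalization.

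POLR2A encodes the catalytic subunit of RNA polymerase II. Its level was 8.99, 8.94, 8.93 and 8.86 log2 CPM in PFA-fixed replicates 1 to 4, against 8.82, 8.89, 8.75 and 8.74 log2 CPM in fresh-frozen replicates 1 to 4. Fresh-frozen replicate 2 reached into the range of the fixed libraries. The change was 0.13 ± 0.060 (SE; limma adjusted p = 0.0713), with a 95% interval of -0.00068 to 0.26. Omitting fresh-frozen replicate 2 made it a call, at 0.16 (limma adjusted p = 0.0390), as did median centring, at 0.21 (limma adjusted p = 0.0113). It was -0.09 after quantile normalization and -0.06 with rod marker centring, not called in either.

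Subunits and partners of these transcription proteins went in both directions, as did all genes, of which 33.9% rose and 34.7% fell. Of 9 other measured RNA polymerase II subunits, 4 rose and 2 fell, with a median of 0.02 (-0.16 with rod marker centring, 0.27 after quantile normalization, and -0.04 to 0.08 without single libraries). POLR2B, the second-largest subunit, stood at 7.04 ± 0.053 log2 CPM in PFA-fixed and 7.12 ± 0.071 log2 CPM in fresh-frozen retina (SD, n = 4 each), a change of -0.08 that was not called (limma adjusted p = 0.293). It was 0.0042 with median centring, and was called lower with rod marker centring (-0.26). POLR2G and POLR2H rose by 1.38 and 0.93. Of 22 TFIID subunits, TBP relatives and associated factors, 9 rose and 7 fell, with a median of 0.21 (0.02 with rod marker centring). TAF1, the largest TFIID subunit, rose by 0.42 and TAF8 by 0.84. TBPL1, a relative of TBP, fell by 0.72, a call that ended after quantile normalization (-0.41).

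**Figure D2:**
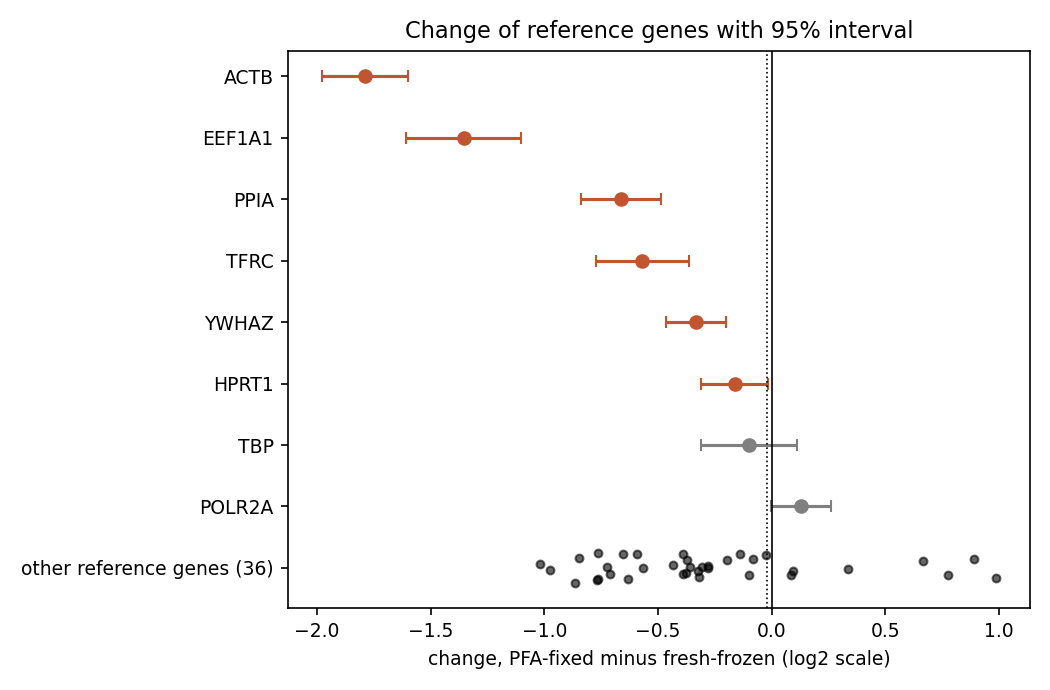
Change of each reference gene, PFA-fixed minus fresh-frozen on the log2 scale, with its 95% interval from limma; orange points were called at an adjusted p below 0.05 and grey ones were not. Black points at the foot are 36 other reference genes, and the dotted line is the median of all genes at -0.02; most of the reference genes lie to its left.

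Other common reference genes were lower more often than higher, while all genes were lower (34.7%) about as often as higher (33.9%). Of 41 listed, 36 were measured, of which 25 fell, 5 rose and 6 were not called, with a median change of -0.37. Changes ran from -1.02 for RAB7A, a small GTPase of late endosomes, to 0.99 for EMC7, a subunit of an endoplasmic reticulum membrane complex. GAPDH, the glycolytic enzyme and a frequent single reference, stood at 10.81 ± 0.10 log2 CPM in PFA-fixed and 11.10 ± 0.15 log2 CPM in fresh-frozen retina (SD, n = 4 each). Its change was -0.28 (limma adjusted p = 0.0148), and the call was lost without PFA-fixed replicate 1 (-0.24, limma adjusted p = 0.0554) or with median centring (-0.20).

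Listed genes with a small SD over all 8 libraries included TOP1 (0.087), CHMP2A (0.10), IPO8 (0.11) and CANX (0.11), which encode a topoisomerase, an endosomal sorting protein, an importin and a chaperone. Among them TOP1, CHMP2A and IPO8 differed by 0.09, 0.08 and -0.08 and were not called, and with rod marker centring TOP1 stood at -0.09 and CHMP2A at -0.10. CANX fell by 0.20 (not called with median centring, -0.12).

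Within a preparation, most of the 8 genes had a smaller SD than the median gene, with EEF1A1 and TFRC in PFA-fixed libraries above it. The comparison is with all genes and was not matched for level. Counting error raises the SD of genes with few reads, so a low standing can come from level alone. The SD of the log2 level over 4 libraries ran from 0.052 to 0.24 in PFA-fixed and from 0.055 to 0.16 in fresh-frozen retina. The all-gene medians were 0.15 in PFA-fixed and 0.16 in fresh-frozen retina, and 6 of the 8 genes lay below the median in PFA-fixed and 8 of 8 in fresh-frozen libraries. POLR2A had the smallest SD in PFA-fixed libraries, 0.052, with 7.23% of all genes below it. HPRT1 had the smallest in fresh-frozen libraries, 0.055, with 6.19% of all genes below it. YWHAZ stood at 0.063 in PFA-fixed and 0.064 in fresh-frozen retina. Single libraries moved these values by more than 1.5 times. POLR2A in PFA-fixed libraries was at 0.033 without PFA-fixed replicate 4, and in fresh-frozen libraries at 0.043 without fresh-frozen replicate 2. HPRT1 was at 0.032 in PFA-fixed libraries without PFA-fixed replicate 3, and at 0.032 in fresh-frozen libraries without fresh-frozen replicate 4. YWHAZ was at 0.040 in PFA-fixed libraries without PFA-fixed replicate 1, and at 0.023 in fresh-frozen libraries without fresh-frozen replicate 3. Each of these is the lowest value that the gene reached without a single library. Without PFA-fixed replicate 3, HPRT1 lay below POLR2A in PFA-fixed libraries. Without fresh-frozen replicate 3, YWHAZ lay below HPRT1 in fresh-frozen libraries. To that extent the order of the smallest SDs rests on single libraries.

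EEF1A1 had the largest SD in PFA-fixed libraries, 0.24, and ACTB the largest in fresh-frozen libraries, 0.16. Without PFA-fixed replicate 3 the SD in PFA-fixed libraries was 0.10 for EEF1A1, 0.068 for ACTB and 0.047 for TBP, and that of PPIA was 0.031 without PFA-fixed replicate 1. In fresh-frozen libraries ACTB was at 0.098 without fresh-frozen replicate 1 and EEF1A1 at 0.052 without fresh-frozen replicate 3. The SD was lower in PFA-fixed than in fresh-frozen libraries for 5 of the 8 genes, where 55.6% of all genes had a lower one, and for 3 of the 8 without fresh-frozen replicate 2. With 4 libraries a group these SDs are coarse, and no test was made on them.

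Counting reads alone gives an expected spread. It is not a floor, and an SD over so few libraries can fall below it. TBP in PFA-fixed libraries, at 0.047 without PFA-fixed replicate 3, did so. TBP rested on an estimated 328 reads in the average PFA-fixed library and 614 in the average fresh-frozen library, which alone give an SD of 0.080 in PFA-fixed and 0.058 in fresh-frozen libraries. Its SDs were 0.094 in PFA-fixed and 0.13 in fresh-frozen retina. HPRT1, with an estimated 670 reads in PFA-fixed and 1294 in fresh-frozen libraries, had SDs of 0.062 and 0.055 in these groups. The SDs expected from counting were 0.056 in PFA-fixed and 0.040 in fresh-frozen libraries. Its spread in PFA-fixed libraries was thus close to what counting alone gives at this depth. ACTB, with an estimated 4109 reads in PFA-fixed and 24364 in fresh-frozen libraries, had SDs many times those expected from counting. The expected SDs were 0.023 in PFA-fixed and 0.0093 in fresh-frozen libraries. These expected SDs rest on the depth estimated from the low values and cover counting error only.

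**Figure D3:**
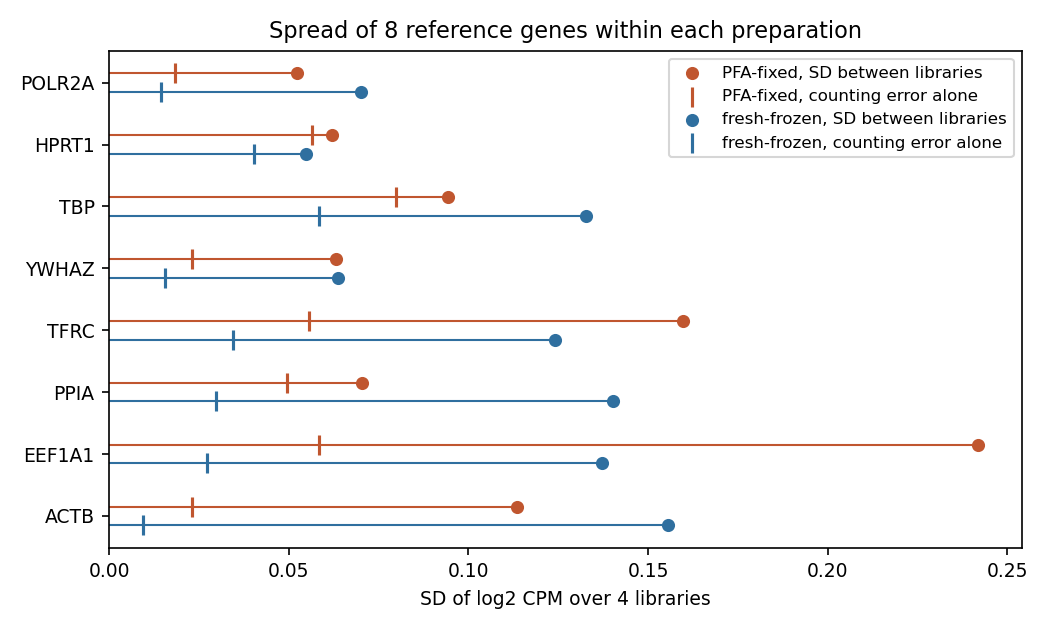
SD of the log2 level of each reference gene over the 4 PFA-fixed (orange) and the 4 fresh-frozen (blue) libraries, with ticks at the SD that read counting alone would give at the estimated depth. Genes are ordered by their SD over all 8 libraries; HPRT1 and TBP in PFA-fixed libraries lie close to their ticks, whereas EEF1A1 and ACTB lie far to the right of theirs.

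Over all 8 libraries together, YWHAZ, TFRC, PPIA, EEF1A1 and ACTB took the same order by SD as by shift between preparations. POLR2A, HPRT1 and TBP did not. These SDs over all libraries were taken with the deposited scaling only. POLR2A had the smallest SD, 0.090, with 2.97% of all genes below it, again not matched for level. Among the 6195 genes with a mean of at least 5 log2 CPM it ranked 337. HPRT1 followed with 0.10 (4.80% of genes below it), TBP with 0.12 (7.28%) and YWHAZ with 0.19 (20.9%). TFRC at 0.33 and PPIA at 0.37 lay near the median of all genes, 0.35. EEF1A1 stood at 0.75 and ACTB at 0.96, with 83.0% and 89.2% of genes below them. The size of the shift gave TBP, POLR2A and HPRT1 as the 3 smallest, in that order, with 11.5%, 14.6% and 17.8% of all genes changed less. The order of these 3 depended on the scaling. With median centring they changed by -0.02, 0.21 and -0.08, and with rod marker centring by -0.29, -0.06 and -0.35. Neighbours in these orders, such as TBP and POLR2A, have intervals that overlap.

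Ratios between reference genes do not depend on how libraries are scaled to each other. For the 28 pairs of the 8 genes, the log2 ratio was taken in every library. In 23 pairs the ratios of the preparations did not overlap, which is 82.1%, where 63.3% of all gene pairs in the table did not. All 13 pairs with ACTB or EEF1A1 were among them, and 10 of the 15 pairs of the other 6 genes. Pairs share genes and are not independent, so no test was made over them.

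The ratio of HPRT1 to YWHAZ varied least over all 8 libraries, with an SD of 0.12. It was -2.55, -2.55, -2.52 and -2.67 in PFA-fixed replicates 1 to 4 and -2.78, -2.69, -2.84 and -2.65 in fresh-frozen replicates 1 to 4. The groups overlapped, and their means differed by 0.17. HPRT1 to TBP had an SD of 0.14 and the smallest difference of means, -0.06. PPIA to TFRC, both of which fell, differed by -0.09.

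The ratio of ACTB to POLR2A moved most. It was -0.67, -0.76, -0.47 and -0.59 on the log2 scale in PFA-fixed replicates 1 to 4, against 1.48, 1.13, 1.38 and 1.20 in fresh-frozen replicates 1 to 4. The groups lay far apart, with every PFA-fixed library below every fresh-frozen one. The difference of -1.92 is 3.78-fold. Even ACTB and EEF1A1, both of which fell by more than 1, differed by -0.43 in their ratio, with no overlap.

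**Figure D4:**
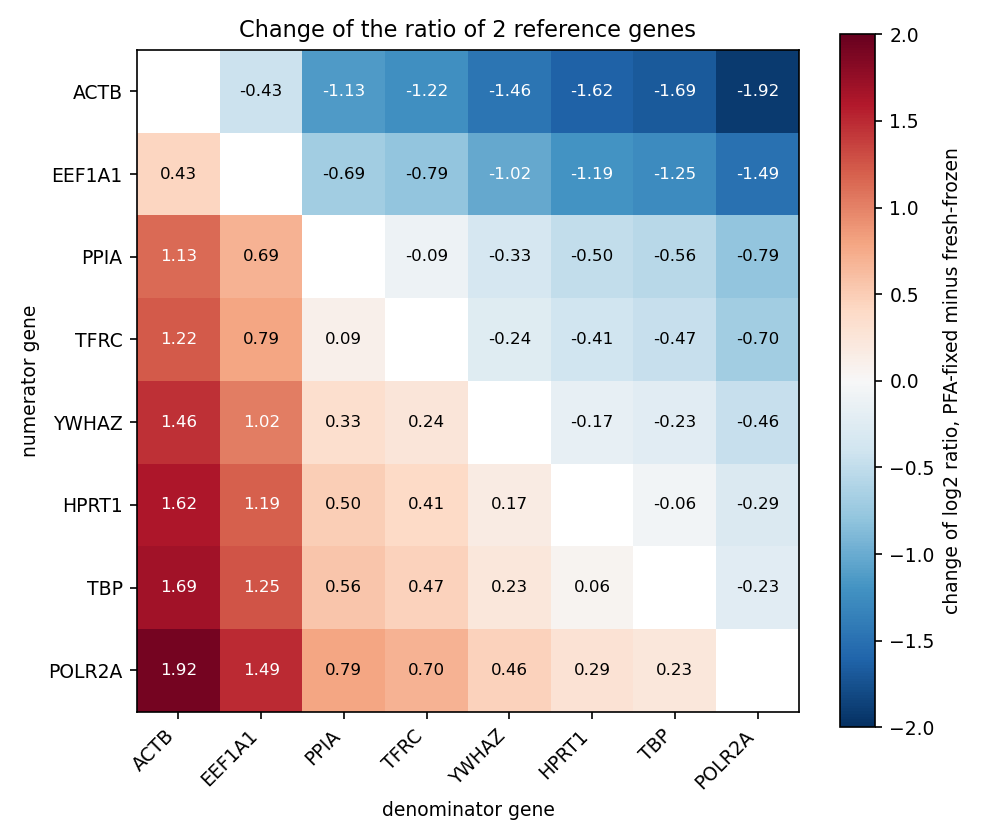
Change of the log2 ratio of each pair of reference genes, PFA-fixed minus fresh-frozen, with the numerator gene in rows and the denominator gene in columns, ordered by change. Cells near the diagonal among YWHAZ, HPRT1 and TBP are pale (-0.23 to 0.23), and the corner that joins ACTB to POLR2A is the darkest (-1.92).

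The mean SD of a gene's log2 ratios to the other 7, the M value of the geNorm method in which a small value means stable ratios, gave another order. Within PFA-fixed libraries M ran from 0.12 for HPRT1 to 0.24 for EEF1A1, and within fresh-frozen libraries from 0.14 for HPRT1 to 0.19 for ACTB. Over all 8 libraries it ran from 0.33 for YWHAZ to 0.74 for ACTB. PPIA, HPRT1 and TFRC had nearly the same M, 0.36, and TBP, POLR2A and EEF1A1 followed with 0.40, 0.47 and 0.57. POLR2A, first by its SD over all libraries, was thus sixth by its ratios to genes that mostly fell. YWHAZ, whose change lies in the middle of the 8, was first.

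The order by M also depends on which genes are set against each other. With the 36 other measured reference genes added, YWHAZ was again first of 44, with an M of 0.26. HPRT1 ranked 10, PPIA 18, TBP 21, TFRC 23, POLR2A 32, EEF1A1 40 and ACTB 44. Among the 8 alone, YWHAZ kept rank 1 and ACTB the last rank without each single library in turn.

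Scaling every library to a single reference gene, as in relative quantification, subtracts that gene's own change from every other gene. The counts therefore restate the changes of the 8 genes on the scale of the whole table, and do not show which scale is right. With ACTB as the scale, limma called 11574 of 12823 genes (90.3%) higher and 616 (4.80%) lower in PFA-fixed retina. With EEF1A1, 10807 genes (84.3%) were higher and 817 (6.37%) lower. PPIA gave 8422 higher (65.7%) and 1655 lower (12.9%), and TFRC 7614 higher (59.4%) and 1775 lower (13.8%). With YWHAZ, 6453 genes (50.3%) were higher and 2642 (20.6%) lower.

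The smaller shifts gave more even counts. HPRT1 gave 5328 higher (41.6%) and 3391 lower (26.4%), and TBP 4548 higher (35.5%) and 3451 lower (26.9%). POLR2A was the only one of the 8 with more genes called lower, 5254 (41.0%), than higher, 3482 (27.2%). The mean of all 8 as the scale gave 8321 higher (64.9%) and 1844 lower (14.4%). That mean was 6.62 to 6.73 log2 CPM in PFA-fixed and 7.26 to 7.30 log2 CPM in fresh-frozen libraries.

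The same subtraction applies to the rod markers, which went both ways. Their median change was 0.21 with the deposited scaling and -0.06 after quantile normalization. It was 1.99 with ACTB as the scale, 1.56 with EEF1A1, 0.87 with PPIA, 0.77 with TFRC, 0.54 with YWHAZ, 0.37 with HPRT1, 0.31 with TBP and 0.08 with POLR2A. Each of these values is the deposited median less the change of the gene used as the scale.

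**Figure D5:**
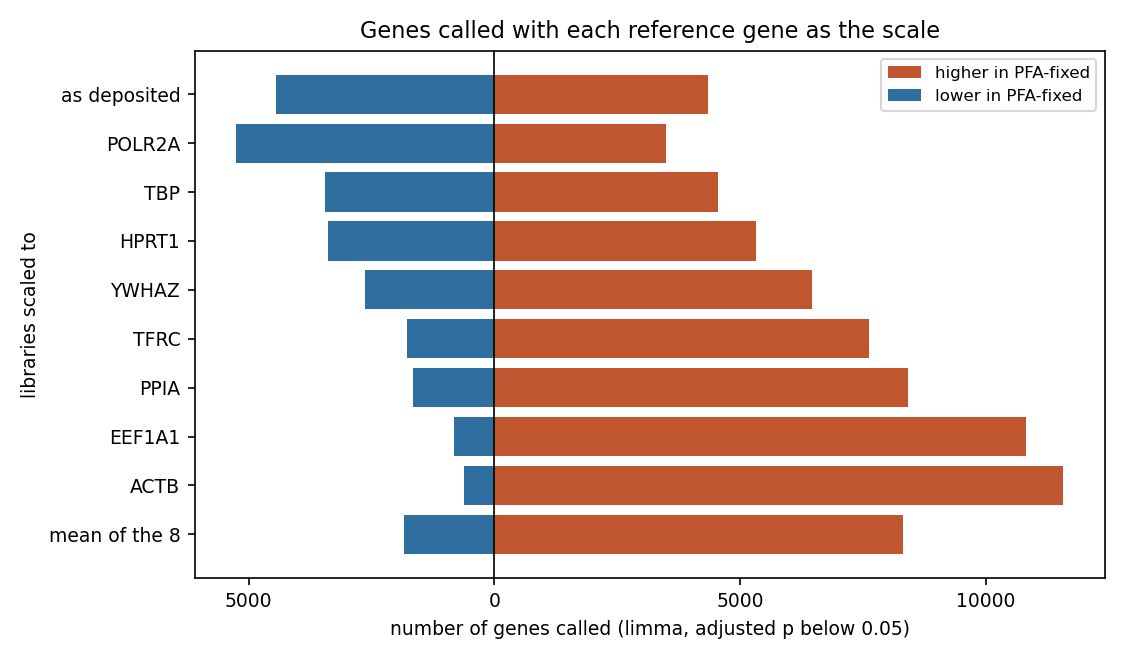
Number of genes called higher (orange, right) and lower (blue, left) in PFA-fixed retina by limma with the deposited scaling and after each library was scaled to a single reference gene or to the mean of the 8. The orange bar is shortest with POLR2A (3482 genes) and longest with ACTB (11574 genes).

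For each reference gene, genes whose log2 ratio to it had the smallest SD over all 8 libraries were found among genes with a mean of at least 3 log2 CPM. ITGA1, an integrin, and PTPRF, a receptor phosphatase, were most like ACTB (SD of the ratio 0.073 and 0.093). FMNL2, a formin, and B4GALT1, a galactosyltransferase, were most like EEF1A1 (0.080 and 0.11). PGM1 and PCSK1N were most like PPIA (0.048 and 0.058), TBX19 and ZNF532 most like YWHAZ (0.026 and 0.033), and C26H22orf39 and LANCL1 most like TFRC (0.042 and 0.062). HPRT1 was followed most closely by RBM18 and IPO7 (0.029 and 0.036), TBP by URB1 and ECHDC3 (0.059 and 0.063), and POLR2A by PI4KB (0.027). Each of these genes was picked from the table for its likeness, so the values describe these 8 libraries.

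CPM values are shares of reads and are not divided by transcript length, so levels are not compared between genes here. Of the 8 genes, 3 (EEF1A1, TBP and YWHAZ) overlap another annotated gene in the RefSeq table of the dog assembly UU_Cfam_GSD_1.0. None of those overlapping genes was among the measured ones, and whether they took reads was not tested.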

How the data were processed

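Retina RNA was sequenced from 4 PFA-fixed and 4 fresh-frozen samples. The authors deposited log2 CPM, the log2 of read counts scaled to library size, for 12824 genes. The submitters' processing notes name kallisto 0.48.0, edgeR and limma without a role or order. Not given in the sources used here were transcript reference, strand setting and filter. All libraries share a lowest value of -3.12 log2 CPM (0.115 CPM), so changes of genes near it are understated. Linear values sum to 947376 to 1058310 per library.

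Depth came from the spacing of low values (0.03 to 0.15 CPM was searched). Of the values up to 20 reads, 59.0% to 69.2% were whole within 0.1 of a read, where chance gives 20%, so reads were not recovered and the planned count test was not run.

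The deposited log2 values were tested with limma 3.58.1 (R 4.3.3, trended variance), two-sided, with preparation as the only term. Benjamini-Hochberg adjusted p-values covered all genes, with a threshold of 0.05. It was tested on simulated data. Intervals are 95%. For scaling to a reference gene, its log2 CPM was subtracted from every gene of the library before the same test. SDs, ratios and M values (without stepwise removal) were computed in Python 3.11.15 and are descriptions. The alternatives tried were quantile normalization, the omission of each library in turn, a block for the replicate number, centring on the library median or on the mean of 18 rod markers, no trend, a minimum mean of 3 log2 CPM, and log2(CPM + 1). Named genes are the 8, their closest relatives, and from each list the 2 with the highest level and the 2 called ones with the largest change; from the panel of common reference genes also the 5 with the smallest SD. The genes most like each of the 8, and the 10 with the smallest SD of the table, were named too, except that a few genes these rules pick are not reported here. The members and lists were chosen with earlier results of these data known. Of a red cell list, 1 gene of 7 was measured, ALAS2, and it was not called. Of the symbols, 12495 matched the RefSeq gene table, all 8 reference genes among them.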

Additional observations from a re-analysis of the deposited data

How the results depend on the processing

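The falls of ACTB, EEF1A1, PPIA, TFRC and YWHAZ kept their direction and their call under all 75 combinations of gene and alternative, and ACTB ranged from -1.97 to -1.71. For HPRT1, the call ended under 10 of 15 alternatives, and its change ranged from -0.35 to -0.08. With rod marker centring, which moved the median change of all genes to -0.20, POLR2A stood at -0.056, TOP1 at -0.092, CHMP2A at -0.10, PPIB at -0.11 and IREB2 at -0.12; after quantile normalization TBP stood at 0.0052 and POLR2A at -0.089, and with median centring POLR2B at 0.0042. These signs turned and the cause was not tested, except that centring shifts all genes alike. Without single libraries, 5 to 6 of the 8 genes were called, 8338 to 8649 genes were called in all, and 23 to 24 of 28 pairs did not overlap. The number of the 8 with a lower SD in PFA-fixed libraries was then 3 (without fresh-frozen replicate 2) to 6. From 5 to 8 of the 8 genes kept their rank by M without single libraries, 3 kept it after quantile normalization and 4 with the panel added. Genes higher in PFA-fixed retina were 49.4% of calls as deposited and 36.0% with rod marker centring (3092 higher, 5492 lower). Replicate numbers do not pair the samples in the labels, and deviations of same-numbered libraries correlated across genes at -0.09 to 0.22. With the replicate block 8799 genes were called, and among the 8 only the call of HPRT1 ended (limma adjusted p = 0.0827). Of the other named genes, 553 of 582 combinations kept direction and call. Depth limits TBP most, with an estimated 328 reads in a PFA-fixed library.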

Other observations

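Over the whole table, 6195 genes had a mean of at least 5 log2 CPM, and the 10 with the smallest SD over all 8 libraries were picked as a description. They were PSMC5, EPC2, PPP2R2A, USO1, PPM1E, WDR26, HNRNPL, ZMIZ2, KDM4A and SPECC1L, with SDs of 0.031 to 0.040. PSMC5, a proteasome ATPase subunit, was at 6.86 log2 CPM in PFA-fixed and 6.89 log2 CPM in fresh-frozen retina. The phosphatase subunit gene PPP2R2A was at 7.65 log2 CPM in both, the vesicle tethering gene USO1 at 7.25 in PFA-fixed and 7.26 in fresh-frozen retina, and the splicing regulator gene HNRNPL at 7.36 in both. Among these 6195 genes POLR2A ranked 337, HPRT1 532, YWHAZ 1936, TFRC 3820, PPIA 4154, EEF1A1 5679 and ACTB 5916, and TBP had a mean below 5 log2 CPM. The values rest on the deposited scaling and on these 8 libraries, from which the genes were picked.

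The mean of POLR2A, HPRT1 and TBP, a set chosen after their values were seen, was 6.41 to 6.48 log2 CPM in PFA-fixed and 6.42 to 6.57 log2 CPM in fresh-frozen libraries. The group means differed by -0.04, with an SD of 0.030 between PFA-fixed and 0.065 between fresh-frozen libraries. The 3 genes are those with the smallest changes, so the choice fixes a small difference.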
